A study of Mus musculus with 227 samples.

Results

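Heat shock protein genes encode the chaperones that fold new proteins and hold damaged ones. The 10 genes described here were taken from the gene table by symbol, 1 row each, out of 31689 genes. Hspa1a and Hspa1b encode the stress-inducible HSP70 proteins and Hspa8 the constitutive one. Dnajb1 encodes an HSP40 co-chaperone that brings clients to HSP70, Hsph1 an HSP110 nucleotide exchange factor, and Bag3 a co-chaperone that links HSP70 to autophagy. Hspb1 encodes a small heat shock protein, Hsp90aa1 the stress-inducible HSP90, and Hspd1 and Hspe1 the mitochondrial chaperonin HSP60 and its partner HSP10. In textbook accounts, misfolded protein draws chaperones away from heat shock factor 1 (HSF1), which then binds inverted GAA repeats, the heat shock elements, and switches on the inducible members. In brain, Hspa8 and Hsp90aa1 are abundant in neurons at rest, whereas Hspb1 is known mainly from glial and vascular cells.

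The samples were mouse primary cerebrocortical cultures. Cells of embryonic day 16.5 F1 embryos (FVB/N mothers crossed with C3B6F1 fathers) were grown for 21 days in vitro and treated for 8 hours. The vehicle group, 0.2% DMSO, has 9 libraries, and each of 218 drugs known to reach the brain has 1 library, so no drug has a replicate check. The labels give no drug concentrations, and nothing in them says whether the vehicle libraries came from separate cultures, so p-values measure only the spread between these libraries. All groups share the strain cross and the medium.

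Each library code starts with a run code, and the libraries carry 9 of them, with 8 to 32 libraries each; 3 run codes hold no vehicle. Library totals ran from 22019878 to 65189712 counts, with a median of 34993893. Of the marker lists, the 5 neuron markers summed to 3187 to 5136 CPM (counts scaled to a library total of 1000000) and the 5 astrocyte markers to 4728 to 7690 CPM, as the label calls for, whereas 5 microglia markers summed to 2.096 to 12.9 CPM and 5 endothelial markers to 0.912 to 5.36 CPM, with Cldn5 at 0 in the median library. In 7 libraries, 6 drugs and Vehicle 3, Xist was at 180 to 197 CPM against 528 to 1028 CPM in the other 220, and Uty at 43.3 to 47.4 CPM against 15.8 to 35.1 CPM. These 7 libraries stand apart, and values that move with them are given with and without them.

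Upstream sequences of 4 members are shown first: Hspa1a and Hspa1b because they share almost all of theirs, Hspb1 because it holds 2 matches, and Hspe1 because it holds the longest run of units. They are the 200 bases before the RefSeq start (GRCm38.p6), 5′ to 3′ on the gene's strand, and capitals mark GAANNTTC or TTCNNGAA, the 2 forms of a pair of inverted GAA units.
Hspa1a (chr17:34972157-34972356, minus strand): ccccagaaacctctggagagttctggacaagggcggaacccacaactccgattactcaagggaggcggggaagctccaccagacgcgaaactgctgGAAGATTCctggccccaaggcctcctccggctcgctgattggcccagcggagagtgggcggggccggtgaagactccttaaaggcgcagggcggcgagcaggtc
Hspa1b (chr17:34959239-34959438, minus strand): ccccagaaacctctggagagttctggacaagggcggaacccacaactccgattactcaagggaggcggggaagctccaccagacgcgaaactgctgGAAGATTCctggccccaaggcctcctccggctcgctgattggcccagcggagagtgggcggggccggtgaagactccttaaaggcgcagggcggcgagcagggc
Hspb1 (chr5:135887719-135887918, plus strand): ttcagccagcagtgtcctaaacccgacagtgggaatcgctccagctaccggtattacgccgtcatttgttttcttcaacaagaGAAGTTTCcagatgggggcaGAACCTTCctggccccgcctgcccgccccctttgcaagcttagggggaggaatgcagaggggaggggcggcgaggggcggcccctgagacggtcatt
Hspe1 (chr1:55088053-55088082, plus strand, the 30 bases around its match): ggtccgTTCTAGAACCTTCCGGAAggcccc

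The Hspa1a and Hspa1b windows are identical at 199 of 200 positions, with a single GAANNTTC that starts 104 bases before the start of each gene. Hspb1 holds 2 copies of GAANNTTC. Hspe1 holds the longest run, 18 bases of alternating units that starts 89 bases before its start and holds both pairs extended by a further unit; an alternative Hspd1 start reads the same bases on the other strand. Of the 10 members 8 have a promoter entry, and 6 of these hold a pair of inverted units; the windows of Bag3 and Dnajb1 hold none, which says only that these letters are not in these 200 bases. Each of the 2 forms reads the same on both strands, and the pair forms can overlap each other. GAANNTTC was found in 5.36% and TTCNNGAA in 5.72% of all 32851 windows of this length; with a further unit added, the run that begins with GAA was found in 0.213% and the run that begins with TTC in 0.18%, on the printed strand.

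The members are spread over the genome (GENCODE vM21, GRCm38). Hspa1b (chr17:34956436-34959238) and Hspa1a (chr17:34969190-34972156) are neighbours on the minus strand. The coding sequences of Hspa1a (1923 bases) and Hspa1b (1926 bases) match at 98.1% of positions. Of all 50-base stretches of the Hspa1a transcript 58.8% also occur in Hspa1b, so the split of reads between the copies is uncertain. Hspd1 (chr1:55077835-55088243, minus strand) and Hspe1 (chr1:55088132-55091307, plus strand) overlap head to head by 112 bases, and reads in the overlap cannot be assigned without the counting strand. The others are Hspb1 (chr5:135887919-135889563), Hsph1 (chr5:149614287-149636376), Bag3 (chr7:128523616-128546981), Dnajb1 (chr8:83608193-83612653), Hspa8 (chr9:40800984-40810087) and Hsp90aa1 (chr12:110690605-110702728).

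In the vehicle libraries Hsp90aa1, Hsph1 and the constitutive Hspa8 were the most abundant, and both inducible HSP70 genes and Hspb1 the least. Per length, in the deposited RPKM (reads scaled to gene length and library size), Hsp90aa1 had a vehicle median of 56.6, Hsph1 47.6, Hspa8 38.2, Hspd1 33.7, Dnajb1 19.3, Hspe1 18.0, Bag3 2.97, Hspa1b 1.38, Hspa1a 0.849 and Hspb1 0.133. In this order the 9 vehicle ranges overlapped between Hsp90aa1 and Hsph1, Hsph1 and Hspa8, Hspa8 and Hspd1, and Dnajb1 and Hspe1, and did not overlap at any other step down to Hspb1, the lowest. Hspb1 was close to the counting limit, with a median of 4 counts and 7 libraries at 0.

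Levels differed far more between libraries for some members than for others. Over all libraries Hsp90aa1 ran from 165 to 221 CPM and Hspd1 from 72.2 to 102 CPM, whereas Bag3 ran from 4.27 CPM with temazepam to 31.0 CPM with formoterol. Among the 9 vehicles the coefficient of variation was 4.80% for Dnajb1, 6.08% for Hsp90aa1 and 6.63% for Hspd1. It was 27.9% for Hspa8 (18.1% without Vehicle 3), 33.2% for Bag3 (26.1%) and 69.5% for Hspb1 (76.2%), so a drug had to move these last 3 much further to stand out.

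**Figure D1:**
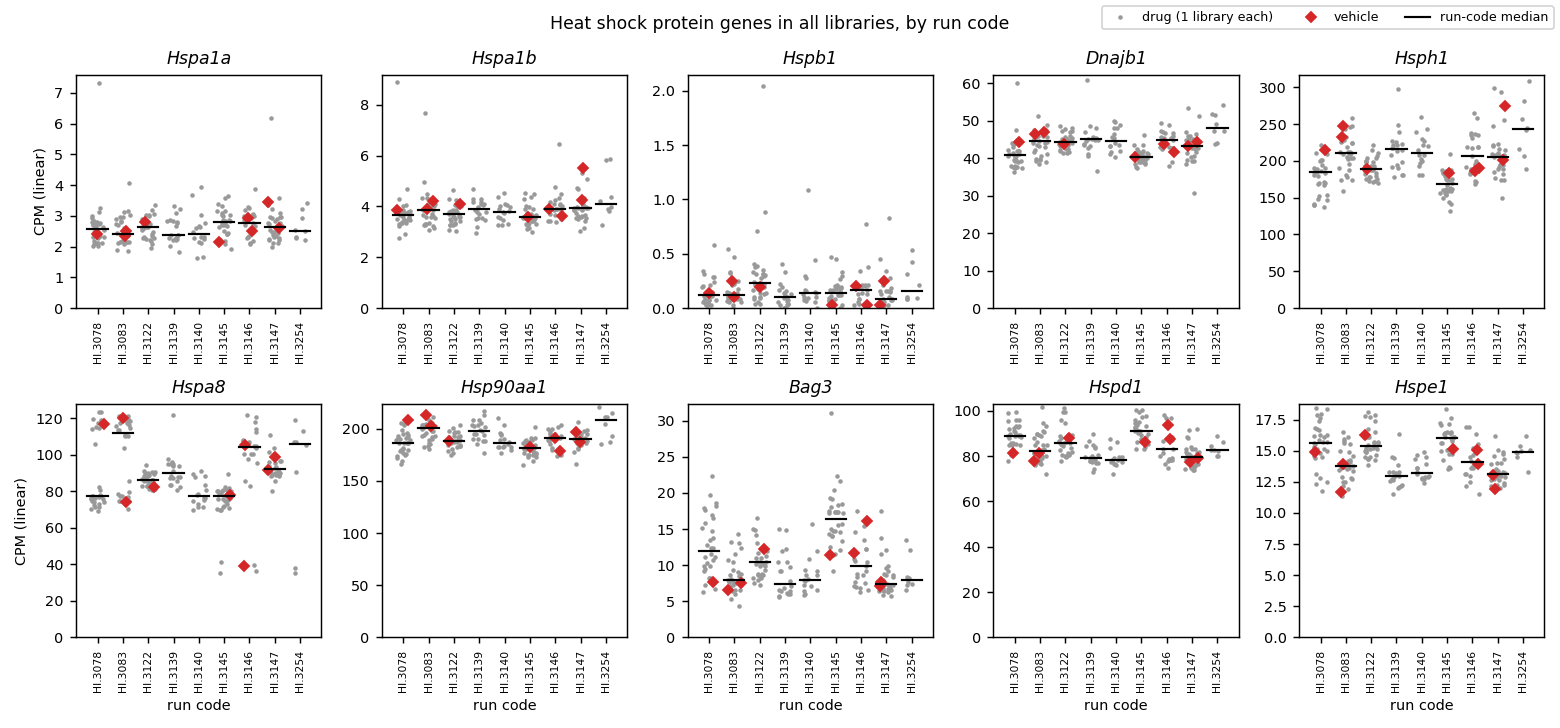
Level of each member (CPM, linear axis from 0) in every library, by run code; grey points are drugs with 1 library each, red diamonds the 9 vehicles, black bars the run-code medians. Hspa1a stands out with nilotinib (7.31 CPM, run code HI.3078) and fenofibrate (6.168 CPM, run code HI.3147), and Hspa8 falls into separate levels within run codes HI.3078, HI.3083 and HI.3146.

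The run code went with the level of most members. In edgeR's quasi-likelihood test over the 9 run codes, 9 of the 10 members differed, against 91.5% of all 15474 genes, so the members followed the background. Hspa1a did not pass (adjusted p = 0.477), with run-code medians between 2.38 and 2.80 CPM. Bag3 had the widest spread of the members above the counting limit, from a median of 7.32 CPM in run code HI.3147 to 16.4 CPM in HI.3145 (adjusted p = 2.23e-22, edgeR). Hsph1 was lowest where Bag3 was highest, at 168 CPM in run code HI.3145, and reached 243 CPM in HI.3254. The second number of the library code added to this: run code alone took up 19.1% of the variance of log2 Hspa8 and 42.9% of that of Bag3, and run code with second number 79.0% and 73.5%, over 57 such sets of libraries. Without the 7 libraries that stand apart these shares were 39.5% and 45.1%, and 87.8% and 74.2%. Each drug was therefore compared both with the 9 vehicles and with the other libraries of its run code.

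Against vehicle, 6 of 2005 tested member and drug pairs passed (0.299%), in 3 drugs, where 0.12% of all gene and drug pairs passed. The 2005 pairs include 43 of Hspb1 that passed the filter on low counts through a high drug library; without Hspb1 it was 5 of 1962 pairs (0.255%). Against the rest of the run code 15 of 2180 pairs passed (0.688%), in 10 drugs, against 0.46% of all pairs. The 6 pairs called against vehicle were also called against the run code, in a comparison that includes the same drug library. At an unadjusted p under 0.05 there were 94 and 100 pairs. All drug comparisons share the same 9 vehicles.

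Nilotinib, a tyrosine kinase inhibitor used in leukaemia, had the highest inducible HSP70 levels of all libraries. Hspa1a was at 7.31 CPM (293 counts) with nilotinib, against 2.802, 2.928, 2.518, 2.1612, 2.399, 2.359, 2.491, 3.444 and 2.612 CPM in Vehicles 1 to 9 and 2.03 to 3.260 CPM in the other 31 libraries of its run code. Hspa1b was at 8.88 CPM against 4.108, 3.605, 3.879, 3.602, 3.861, 3.880, 4.204, 5.516 and 4.252 CPM. Both lay above every vehicle, and Vehicle 8 was the highest vehicle for both copies. The log2 fold change against vehicle was 1.38 ± 0.19 (SE; adjusted p = 0.00224, edgeR) for Hspa1a and 1.02 ± 0.20 (adjusted p = 0.0126) for Hspa1b. Against the run code, where 20.7% of genes were called, Hspa1a and Hspa1b also passed (1.45 ± 0.24 and 1.21 ± 0.18, limma).

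Dnajb1, the HSP40 partner, was at 60.2 CPM with nilotinib, against 40.3 to 47.0 CPM in the vehicles and 36.2 to 47.6 CPM in the rest of the run code. It rose by 0.36 ± 0.10 on the log2 scale (adjusted p = 0.0465, edgeR), a call that ended without any of Vehicles 1, 3, 4, 5, 8 or 9 (adjusted p up to 0.078), and by 0.48 ± 0.11 against the run code (adjusted p = 0.000249, limma). Bag3 was at 22.4 CPM, above all vehicles (6.606 to 16.2 CPM) and above its run code's range of 6.32 to 19.7 CPM; its log2 fold change of 1.102 ± 0.36 did not pass (adjusted p = 0.0705, edgeR), and was 1.2212 without Vehicle 3, whose Bag3 level was the highest of the vehicles (adjusted p = 0.0239). No other tested member passed: the log2 fold change was -0.43 ± 0.44 for the constitutive Hspa8, -0.32 ± 0.23 for Hsph1, -0.10 ± 0.12 for Hsp90aa1, -0.0048 ± 0.08 for Hspd1 and -0.04 ± 0.14 for Hspe1 (edgeR, adjusted p 0.396 to 0.976).

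The count of 3 called members with nilotinib stands beside 12.2% of all 15474 genes called in the same comparison. Of the 48 tested genes of a list of other chaperones, co-chaperones and HSF1 pathway genes, 0 rose and 5 fell, against 6.2% and 6.02% of all genes, and the list's median log2 fold change was -0.17 against -0.01 for all genes. Among those that fell were Bag1, an HSP70 nucleotide exchange factor (-0.37 ± 0.07, adjusted p = 0.0106, edgeR), Cct8, a subunit of the cytosolic chaperonin (-0.31 ± 0.08, adjusted p = 0.0382), Ppid, an HSP90 co-chaperone (-0.30 ± 0.09, adjusted p = 0.0483), and Hspa12a, a distant HSP70 relative (-0.92 ± 0.20, adjusted p = 0.0185). Nilotinib also had the lowest summed neuron markers of all libraries, 3187 CPM against 3190 to 4914 CPM in its run code, and its activity-regulated genes (Fos, Arc, Npas4 and others) summed to 1143 CPM against 121 to 789 CPM. Its oligodendrocyte precursor markers were the lowest of all libraries, at 181 CPM against 272 to 402 CPM, and microglia markers were at 3.618 CPM against 3.94 to 7.81 CPM. The part of these lists in the chaperone values was not tested. In bulk libraries, fewer cells of a type and less RNA per cell cannot be told apart.

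With fenofibrate, a lipid-lowering PPARα agonist, Hspa1a rose and its twin Hspa1b was not called. Hspa1a was at 6.168 CPM, above the 2.00 to 3.571 CPM of the other 31 libraries of its run code and above all vehicles, and rose by 1.197 ± 0.20 against vehicle (adjusted p = 0.00465, edgeR). Hspa1b was at 5.09 CPM, inside the vehicle range, with a log2 fold change of 0.28 ± 0.22 (adjusted p = 0.472); the difference between the copies was not tested. Dnajb1 moved the other way: its 30.7 CPM was the lowest of all libraries, below 40.3 CPM in the lowest vehicle, and it fell by 0.55 ± 0.11 (adjusted p = 0.0123, edgeR). Bag3 was at 17.5 CPM, above all vehicles and above the 5.68 to 13.8 CPM of its run code; it rose against the run code (1.138 ± 0.38, adjusted p = 0.0155, limma; 27.3% of genes called) and did not pass against vehicle (0.81 ± 0.37, adjusted p = 0.198, edgeR).

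With fenofibrate 10.6% of all genes were called against vehicle. In the chaperone list 3 genes rose and 4 fell, against 5.82% and 4.78% of all genes. Among those that rose were the autophagy adaptor Sqstm1 (0.72 ± 0.08, adjusted p = 0.000536, edgeR) and the HSP70 relative Hspa14 (0.43 ± 0.11, adjusted p = 0.0319). Those that fell were the HSP90 co-chaperone gene Chordc1 (-0.60 ± 0.10, adjusted p = 0.00530), the HSP40 gene Dnajb4 (-0.55 ± 0.08, adjusted p = 0.00192) and the HSP110 family genes Hspa4l and Hspa4 (-0.35 ± 0.09 and -0.34 ± 0.08, adjusted p = 0.0279 and 0.0304). Neuron markers were lower (3433 CPM, run-code range 3505 to 4940) and astrocyte markers higher (7690 CPM, run-code range 5011 to 6932) than in the rest of the run code, and their part in these values was not tested. The other 4 fibrates, picked here after their values were seen, had Hspa1a at 3.95 CPM (ciprofibrate), 3.04 CPM (clofibrate), 2.30 CPM (bezafibrate) and 2.170 CPM (gemfibrozil); concentrations are not in the labels, so no comparison was made.

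**Figure D2:**
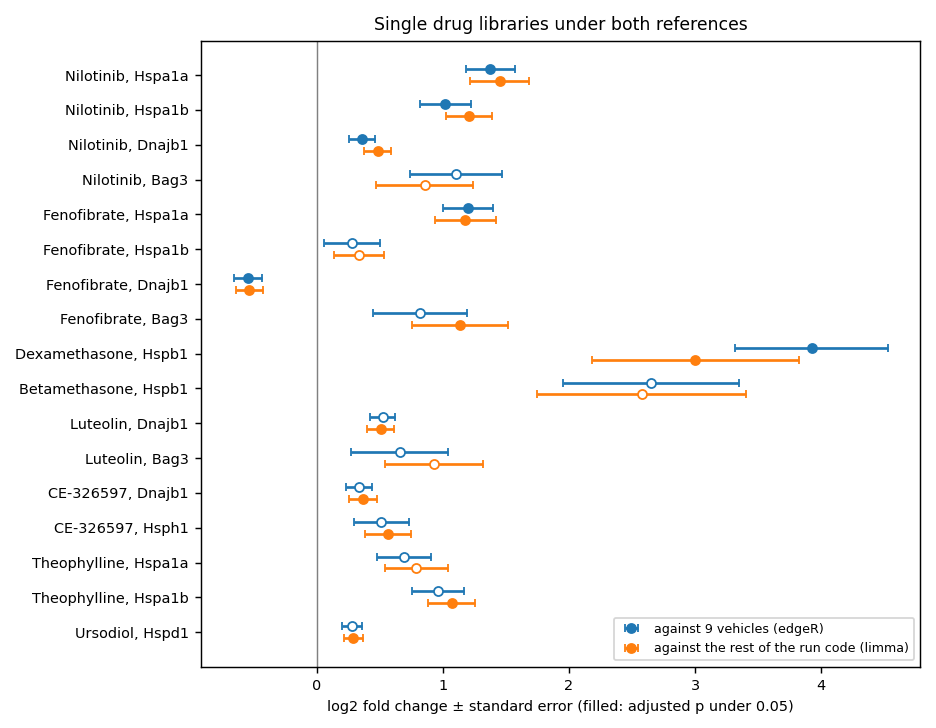
Log2 fold change ± standard error of members in single drug libraries against the 9 vehicles (blue, edgeR) and against the rest of the run code (orange, limma); filled points have an adjusted p under 0.05. Nilotinib and fenofibrate share a rise of Hspa1a (1.38 and 1.197 against vehicle), while Dnajb1 rose with nilotinib and fell with fenofibrate.

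Dexamethasone, a synthetic glucocorticoid, had the highest Hspb1 of all libraries. Hspb1 was at 2.05 CPM (73 counts), against 0.0242 to 0.252 CPM (1 to 9 counts) in the vehicles and at most 0.887 CPM in its run code, and it rose by 3.92 ± 0.60 on the log2 scale (adjusted p = 0.0226, edgeR; 0.318% of genes called against vehicle and 0.834% against the run code). The call ended without Vehicle 5 or Vehicle 6 (adjusted p = 0.0662 and 0.0556). Hspb1 passed the filter on low counts in 43 of 218 comparisons, those where the drug library itself was high, so the count of pairs above is also given without it. Betamethasone, the other potent glucocorticoid, had the second-highest Hspb1 after centring on the run code, 0.830 CPM (33 counts), with a log2 fold change of 2.65 ± 0.70 that did not pass (adjusted p = 0.518, edgeR). Cortisone acetate, which tissues must convert to the active hormone, was at 0.101 CPM (3 counts). High Hspb1 was not confined to glucocorticoids. The fibrate ciprofibrate was at 1.088 CPM (43 counts), above betamethasone before centring and next after it once centred. With the second number of the library code also fitted, Hspb1 was called with ciprofibrate, whereas its call with dexamethasone ended. No other member passed with dexamethasone.

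Outside these 3 drugs, edgeR's test against all vehicles together called no member, and members passed against the run code. With Vehicle 3 left out, edgeR's test called Bag3 with formoterol. DESeq2 also called Bag3 with formoterol (adjusted p = 0.00463) and Dnajb1 with luteolin against vehicle. Luteolin, a plant flavonoid, had the highest Dnajb1 of all libraries, 60.8 CPM against 36.7 to 48.5 CPM in the other 19 libraries of its run code, which holds no vehicle (0.51 ± 0.11, adjusted p = 0.000631, limma; 8.86% of genes called). Against vehicle it was 0.52 ± 0.10 (adjusted p = 0.0839, edgeR). Hspa1a and Hspa1b were at 2.28 and 2.96 CPM, with no call. Its activity-regulated genes summed to 1544 CPM, above the run code's 124 to 1370 CPM, and neuron markers to 5101 CPM against 3666 to 5089 CPM. Mural markers were the lowest of all libraries (10.9 CPM, run code 17.7 to 39.9 CPM), and oligodendrocyte precursor markers (251 CPM, run code 352 to 430 CPM), astrocyte markers (4728 CPM, run code 4767 to 6839 CPM) and endothelial markers (0.912 CPM, run code 0.938 to 3.76 CPM) lay below the run code. The part of these lists in the Dnajb1 value was not tested. In the chaperone list 3 genes rose against the run code and 0 fell, against 3.91% and 4.95% of all genes: the HSP70 relative Hspa13 (0.41 ± 0.08, adjusted p = 4.85e-05, limma), the factor Hsf1 itself (0.36 ± 0.12, adjusted p = 0.0324) and Hspa4 (0.28 ± 0.07, adjusted p = 0.00369).

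Theophylline, a methylxanthine bronchodilator, was the only other drug with an Hspa1b call: 7.67 CPM against 3.07 to 4.95 CPM in the other 31 libraries of its run code (1.07 ± 0.19, adjusted p = 0.000644, limma; 0.0711% of genes called). Hspa1a was at 4.08 CPM, above all vehicles and its run code, without a call (adjusted p = 0.244). Its activity-regulated genes summed to 1915 CPM, the highest of all libraries. Its salts aminophylline and oxtriphylline, picked after their values were seen, had Hspa1b at 3.77 and 3.73 CPM, in other run codes and at unstated concentrations. CE-326597 had Dnajb1 at 53.4 CPM (0.37 ± 0.11, adjusted p = 0.0338) and Hsph1 at 294 CPM (0.56 ± 0.18, adjusted p = 0.0497, limma; 3.89% of genes called), with activity-regulated genes at 1793 CPM. The Hsph1 call lay at the threshold: its adjusted p was 0.0501 with RLE scaling, 0.0567 without the filter and 0.0524 without the 7 libraries that stand apart. With the second number of the library code also fitted, the calls for theophylline and CE-326597 ended (adjusted p = 0.0832, 0.532 and 0.782), as did that of Hspb1 with dexamethasone (adjusted p = 0.155).

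Ursodiol, a bile acid, had the highest Hspd1 of all libraries, 102 CPM against 72.2 to 94.6 CPM in its run code (0.29 ± 0.08, adjusted p = 0.0304, limma; 19% of genes called), and its partner Hspe1 was at 16.1 CPM (0.23 ± 0.11, adjusted p = 0.122). The small heat shock protein genes Hspb8 (2.198 ± 0.68, adjusted p = 0.0316), Cryab (1.53 ± 0.51, adjusted p = 0.0348) and Hspb6 (1.31 ± 0.38, adjusted p = 0.0316) rose with it, among 6 of 49 listed genes that rose and 2 that fell, against 9.37% and 9.65% of all genes. Several marker lists lay outside the rest of the run code: mural markers summed to 61.9 CPM against 21.3 to 51.3 CPM, astrocyte markers to 7248 CPM against 4901 to 6686 CPM and endothelial markers to 4.260 CPM against 1.28 to 4.09 CPM. Neuron markers were at 3428 CPM against 3817 to 5136 CPM and oligodendrocyte precursor markers at 317 CPM against 330 to 432 CPM, and the part of these lists was not tested. Against vehicle 0 genes were called with ursodiol.

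Hspa8 showed a different pattern, a set of separate levels. The 7 libraries that stand apart had 35.4 to 41.2 CPM, and the other 220 had 69.4 to 124 CPM, with no overlap. The 7 are the drugs spironolactone, tamsulosin, ketotifen, misoprostol, aprepitant and cyproheptadine, whose library codes end in the numbers 79, 80, 83, 87, 88 and 89, and Vehicle 3, in 3 different run codes. Hspa8 was the only member whose range in the 7 did not overlap that in the others. Xist and Uty did not overlap either. The share of all genes without overlap was not counted, so this does not mark Hspa8 out among genes. Against the run code it fell with ketotifen (-1.33, adjusted p = 0.0105; 0.0775% of genes called), misoprostol (-1.38, adjusted p = 0.00695; 0.0323%) and tamsulosin (-1.39, adjusted p = 0.0127, limma; 0.0388%). Vehicle 3, which received no drug, gave the same call (-1.31, adjusted p = 0.0141; 0.0517%).

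Within some run codes the other levels of Hspa8 also split by the final number of the library code. In run code HI.3078 the 21 drug libraries numbered 129 to 149 had 69.4 to 82.5 CPM and the 10 numbered from 150 to 182 had 106 to 124 CPM. In run code HI.3083 the 19 drug libraries numbered 157 to 177 had 104 to 121 CPM, and the 11 numbered from 184 to 196 had 70.3 to 85.5 CPM. The libraries numbered 178 and 179, in run code HI.3146, had 118 and 121 CPM. The vehicles themselves spanned 39.0 to 120 CPM, with Vehicle 6 at 120 CPM and Vehicle 7 at 74.2 CPM in the same run code. The labels do not say what the final number stands for. With the second number of the library code fitted as well, Hspa8 was at -0.06 with misoprostol, 0.014 with ketotifen and 0.042 with Vehicle 3, none passing. These libraries make up their whole set of run code and second number, and all stand apart, so this fit could not show a fall in them. Tamsulosin kept its call (-1.05, limma). Its set also holds loratadine (107 CPM) and losartan (90.3 CPM), which do not stand apart. These stretches were drawn from the Hspa8 values themselves, at the widest gap within the run code, and carry no test.

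**Figure D3:**
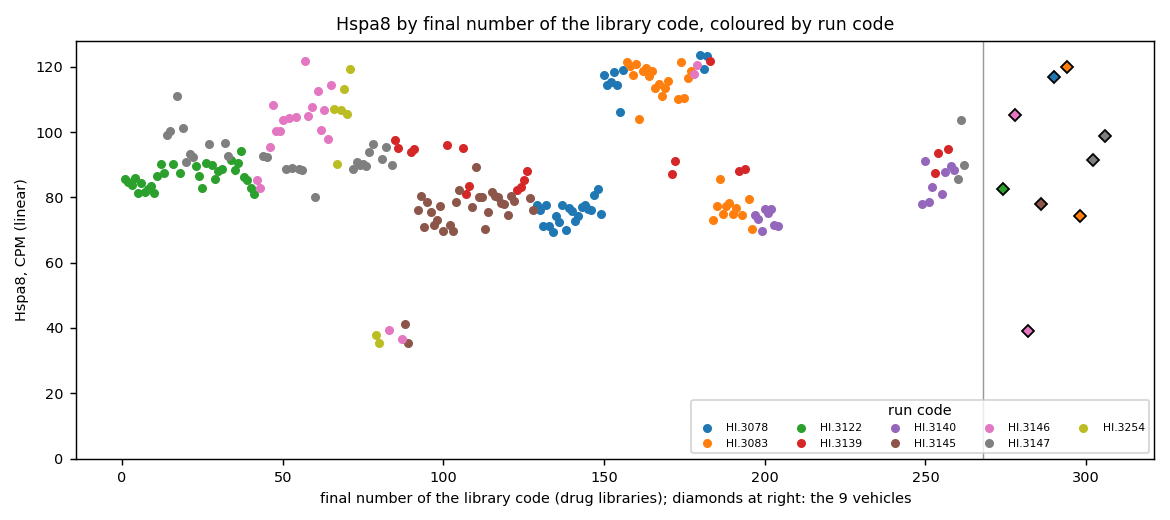
Hspa8 (CPM, linear axis from 0) in each drug library by the final number of its library code, coloured by run code, with the 9 vehicles as diamonds at the right. The 6 drug libraries numbered 79 to 89 that stand apart and Vehicle 3 lie between 35.4 and 41.2 CPM, and numbers from 150 in run code HI.3078 lie above those up to 149.

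After centring on the run code, the members fell into blocks that varied together across all libraries. Of 45 pairs, 30 had a permutation p that passed after adjustment, 17 positive and 13 negative. The share of all gene pairs that would pass was not counted, so the 30 have no background to be set against. Hsph1, Dnajb1 and Hsp90aa1, the HSP110, HSP40 and HSP90 genes, rose and fell together, with r = 0.81 (rho 0.81) for Hsph1 and Hsp90aa1 and r = 0.69 (rho 0.78) for Hsph1 and Dnajb1. Each was positive in all 9 run codes (0.75 to 0.89 and 0.58 to 0.88), and without the 2 libraries farthest from the median r was 0.81 and 0.71 (both permutation p = 1e-05, the smallest 100000 permutations can give; adjusted 2.65e-05). These permutations shuffle libraries within a run code and so ignore the second number of the library code. With values centred on run code and second number and shuffled within those 57 sets of up to 4 libraries, 22 of 45 pairs passed, with r = 0.73 (rho 0.78) for Hsph1 and Hsp90aa1 and r = 0.60 (rho 0.66) for Hsph1 and Dnajb1 (both permutation p = 1e-05, adjusted 3.75e-05). Without the 7 libraries that stand apart, 30 pairs passed.

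Bag3 ran against that block and with the mitochondrial pair. It had r = -0.59 (rho -0.61) with Hsp90aa1 and r = -0.54 (rho -0.58) with Hsph1, negative in all 9 run codes, and r = 0.57 (rho 0.59) with Hspd1, positive in 8 of 9 (permutation p = 1e-05 for each, adjusted 2.65e-05). With the second number also taken out, r was -0.42, -0.43 and 0.49 (permutation p = 1e-05 for each, adjusted 3.75e-05). Hspd1 and Hspe1, the chaperonin and its partner, had r = 0.55 (rho 0.55), positive in all 9 run codes. The inducible copies Hspa1a and Hspa1b were only loosely tied, with r = 0.49 (rho 0.29), and r = 0.38 without the 2 farthest libraries. Hspa1a went with Bag3 (r = 0.40, rho 0.38), whereas Hspa1b did not (r = -0.00, rho -0.07, permutation p = 0.947).

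The same blocks went with summed marker lists, of activity-regulated genes and of cell types. Hsph1 had r = 0.80 (rho 0.81) with the summed activity-regulated genes and r = 0.69 (rho 0.70) with the summed neuron markers, both positive in all 9 run codes. Bag3 had r = -0.76 (rho -0.74) with the neuron markers and r = 0.73 (rho 0.73) with the astrocyte markers, again with 1 sign in all 9. Dnajb1 and Hsp90aa1 went with the activity-regulated genes (r = 0.64 and 0.64, rho 0.68 and 0.64). All of these had the smallest permutation p, 1e-05, adjusted 2.89e-05 over 110 relations. With the second number also taken out, r was 0.74 and 0.63 for Hsph1 with the activity-regulated genes and neuron markers, and -0.68 and 0.66 for Bag3 with the neuron and astrocyte markers (permutation p = 1e-05 for each, adjusted 3.93e-05). Mural markers had r = -0.70 (rho -0.67) with Hsp90aa1, -0.66 (rho -0.66) with Hsph1, -0.54 (rho -0.57) with Dnajb1 and 0.52 (rho 0.58) with Bag3, each with 1 sign in all 9 run codes. The mitochondrial share of counts had r = -0.47 (rho -0.48) with Hsp90aa1, -0.42 (rho -0.45) with Hsph1 and -0.33 (rho -0.44) with Dnajb1, and 0.37 (rho 0.43) with Bag3 and 0.39 (rho 0.39) with Hspd1, each with the same sign in 7 of 9 run codes. Taking out the second number as well left these at -0.29, -0.31, -0.14, 0.24 and 0.27. Dnajb1 then no longer passed (adjusted permutation p = 0.188). Library total had r of at most 0.18 with any member. What part the activity-regulated genes, the cell make-up or the mitochondrial share has in the blocks was not tested.

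**Figure D4:**
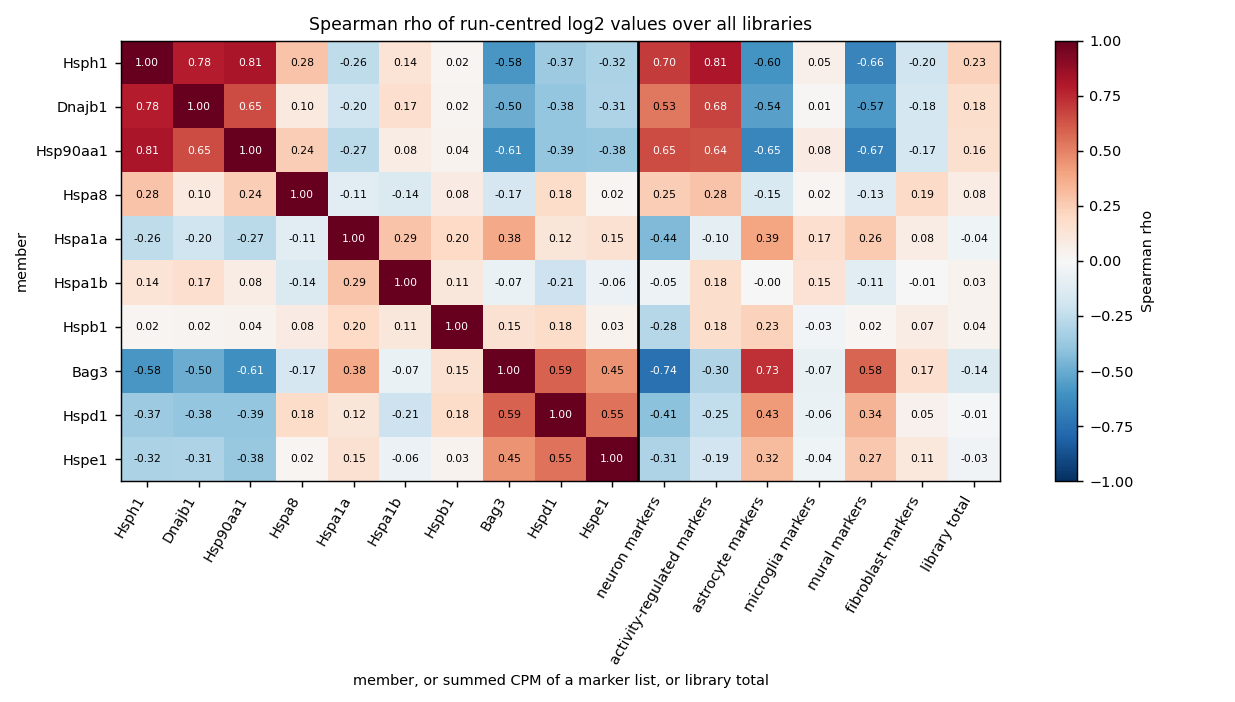
Spearman rho between members, and between members and summed marker lists or library total, from run-centred log2 values over all libraries. Hsph1, Dnajb1 and Hsp90aa1 form a positive block (0.65 to 0.81) that is negative with Bag3 (-0.50 to -0.61), and the neuron and activity-regulated columns follow it.

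The genes whose run-centred pattern was most like each member were read off next, 3 per member. Hsph1 was closest to the neuronal genes Kcnf1 (a potassium channel subunit), Dclk1 and Brinp1, each with rho 0.93, and Hsp90aa1 to Ap2b1, Hprt and Map7d2 (rho 0.85, 0.84 and 0.84). Bag3 was closest to Wwtr1 (the coactivator TAZ), Ptbp1 and Gem (rho 0.90, 0.89 and 0.88). Hspd1 was closest to the cytosolic chaperonin gene Cct3 and the nucleolar genes Npm1 and Ncl (rho 0.78, 0.77 and 0.76), and Hspe1 to Gnb2l1, Cct3 and Rplp0 (rho 0.60, 0.59 and 0.56). Dnajb1 was closest to Mesdc1, Coro1a and Kcnf1 (rho 0.82, 0.81 and 0.81).

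The closest genes of the remaining members reached lower values. Hspb1 was closest to Fgf2, Cebpd and Serpina3n (rho 0.62 each), the last a marker of reactive astrocytes. Hspa1a was closest to Repin1, Tap1 and Rras (rho 0.57, 0.50 and 0.50), Hspa1b to Glod4, Cdkn1c and H2-D1 (rho 0.38 each), and Hspa8 to Tcf25, Gm17305 and Cltb (rho 0.59, 0.57 and 0.54). With the mean of 6 inducible members (both HSP70 genes, Dnajb1, Hsph1, Hspb1 and Bag3, without Hsp90aa1) the closest genes were Pdlim4, Slc16a1 and Arpc1b (rho 0.70, 0.69 and 0.69), then Pros1, Anxa2, Shisa5, Fgf2, Cebpd, Cd44 and Gfra1 (rho 0.68 to 0.65). Fgf2 and Cebpd were also closest to Hspb1, whose run-centred SD was the largest of the 6. It was 0.830 on the log2 scale, against 0.109 (Dnajb1) to 0.381 (Bag3) in the others. The mean also joins members that ran against each other, such as Bag3 and Hsph1. These likenesses are descriptions over all libraries and carry no test.

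The flavonoids and the nonsteroidal anti-inflammatory drugs (NSAIDs) have several libraries each and were compared with vehicle as groups. Each drug has 1 library and stood in as a repeat of its class, though the compounds differ. The 6 flavonoids had Dnajb1 at 48.7 ± 6.28 CPM (SD, n = 6) against 43.9 ± 2.106 CPM in the vehicles (n = 9), a log2 difference of 0.18 ± 0.07 that did not pass in edgeR's test (adjusted p = 0.594); 0% of genes were called, and 1166 had an unadjusted p under 0.05. Against all other libraries, drugs and vehicles together, with a run-code term in limma, Dnajb1 rose by 0.17 ± 0.05 (adjusted p = 0.0293, 2.36% of genes called), and by 0.09 ± 0.05 without luteolin (adjusted p = 0.638) and 0.15 ± 0.05 without apigenin (adjusted p = 0.184). That term does not take out differences within a run code. Genistein, kaempferol, quercetin and apigenin (44.0 to 48.7 CPM) lie among the drug libraries numbered 184 to 196 of run code HI.3083. The other drugs there had Dnajb1 at 44.6 to 51.2 CPM, and those numbered 157 to 177 had 38.5 to 45.7 CPM. The part of this position in the class value was not tested. The 10 NSAIDs had Dnajb1 at 43.0 ± 2.86 CPM and Hspa1b at 3.643 ± 0.44 CPM against 4.101 ± 0.58 CPM in vehicle, and no member passed (edgeR, 0% of genes called, 904 at an unadjusted p under 0.05; DESeq2 called 4 genes and no member).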

How the data were processed

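Messenger RNA libraries (a strand-marking kit) were made from cultures given 1 of 218 drugs (1 library each) or vehicle (9 libraries). The submitters' processing notes list mm10 as the build and, in no stated order, the tools edgeR 3.10.5, limma, Subread 1.4.6 and STAR 2.4.0; the counting strand and the handling of reads that match several places are not given in the sources used here. The authors deposited raw counts per gene, which were the input of every test, and RPKM (reads scaled to gene length and library size), which were used only to order genes by level.

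CPM is the count scaled to a library total of 1000000. Each drug was fitted against the 9 vehicles with edgeR 4.0.16 (TMM scaling, filterByExpr, quasi-likelihood test), and each library against the rest of its run code with limma 3.58.1 (log2 CPM, prior count 2, run-code term). Run codes and 2 drug classes were tested likewise, with adjustment (Benjamini-Hochberg) over all genes and a threshold of 0.05. Relations across libraries used values centred on the run-code median and 100000 permutations within run codes. The named genes are the 10 members. Named drugs are those with a called member, some of the 3 highest and 3 lowest per member, and relatives picked after their values were seen. Members and lists were chosen with earlier results of these data known.

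On simulated counts with 200 changed genes, the fit of 1 library against the 9 vehicles recovered 65.3% of genes changed by 1 on the log2 scale and 83.6% of those changed by 2, with 4 false calls among 13576 unchanged genes. Each simulated gene was drawn on its own from the vehicle means and spread, without shared shifts by run code or second number. These rates may therefore not hold for a real drug library. Alternatives were RLE scaling, no filter, DESeq2 1.42.0, other prior counts and left-out libraries. The 36 vehicle pairs differed by more than sampling noise (lowest chi-square per gene 10.4), so none was counted as a repeat.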

Additional observations from a re-analysis of the deposited data

Results flagged for a closer look

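Of 30 sets of values (10 members in the vehicles, the flavonoids and the NSAIDs), 7 held 1 library far from the rest. Chance alone gives about 1 in 20 only for independent values from 1 source. These sets pool run codes and the members vary together, so the count has no chance rate to be set against. Among the vehicles Hspa1b was highest in Vehicle 8, at 5.52 CPM, with the next vehicle at 4.252 CPM. Among the NSAIDs oxaprozin was highest for Bag3 (19.7 CPM, next 9.94 CPM) and Hspd1 (99.6 CPM, next 85.6 CPM), and meloxicam for Hspb1 (0.887 CPM, next 0.312 CPM). Among the flavonoids luteolin was highest for Dnajb1 (60.8 CPM, next 48.7 CPM) and Hspa8 (88.6 CPM, next 79.5 CPM), and quercetin for Hspd1 (85.1 CPM, next 80.5 CPM).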

How the results depend on the processing

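Against vehicle, the 6 member calls were 5 with RLE scaling, 5 without the filter and 9 with DESeq2. Without each vehicle in turn, 4 to 6 of those 6 calls were kept, a count that leaves out added calls. With Vehicle 3 left out, edgeR's test added Bag3 with formoterol and Bag3 with nilotinib. DESeq2 added Bag3 with formoterol (log2 fold change 1.658, adjusted p = 0.00463), Bag3 with nilotinib and Dnajb1 with luteolin. The same question asked against the run code (limma) gave 15 calls. Those 15 were 15 to 17 under RLE scaling, another prior count, robust variances, no vehicles or no filter, 11 without the 7 libraries that stand apart, and 22 with the second number of the library code, of which 9 were shared. That last setting and the settings without those 7 libraries or Vehicle 3 were chosen after seeing the data. Fitting the second number reversed the Hspa8 values of ketotifen (0.014) and Vehicle 3 (0.042). Their set holds only libraries that stand apart, so that fit could not show their fall, and the cause of the fall was not tested. Set against all other libraries with a run-code term in limma, so with another reference and tool as well, the flavonoids gave 1 member call against 0 in edgeR's test against vehicle, and 0 to 1 without each flavonoid in turn. Prior count 0.5 ended the Hspb1 call with dexamethasone against the run code (adjusted p = 0.289). Of 191 values of single genes under alternatives, 169 kept direction and call, 20 lost the call and 2 reversed. The count of 9 members between run codes and of 30 relations did not move beyond 1.5 times; the latter was 22 with the second number also taken out and 30 without the 7 libraries, both chosen after seeing the data. No paired analysis was possible because each drug has 1 library and shares at most 1 replicate number with the vehicles; the run code was used as a term instead. Depth limits Hspb1 most, at a median of 4 counts.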
